A study of Mus musculus with 47 samples.

Results

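The comparison is of FOSL2 chromatin immunoprecipitation with sequencing (ChIP-seq) in Pbrm1 knockout (KO) cells and in control cells, both after 48 h with transforming growth factor β1 (TGFβ1). Its members are the peaks of 2 deposited lists, 7381 from the KO library and 3444 from the control library, of 806216 peaks in the 32 lists of the series. Peaks of the lists that overlapped by at least 1 bp were placed in a class called both, and the rest were KO only or control only. The cells were NMuMG, an epithelial line from the mouse mammary gland that takes on a mesenchymal form under TGFβ1. The KO cells were labelled Pbrm1 KO and the others control, both received 5 ng/ml TGFβ1 for 48 h, and both were crosslinked with formaldehyde alone. The labels do not say how the knockout was made or whether the line was 1 clone, and peak lists hold no measure of Pbrm1 RNA or protein, so the knockout was not checked here. Of 47 samples, 15 were inputs used here without a list, and the other lists held the bZIP factors FOSB and ATF3, the SWI/SNF proteins PHF10 and BRG1, and 5 histone marks. The FOSL2 lists from untreated cells (0 h) held 5 peaks in KO cells and 7 in control cells.

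FOSL2, also named FRA2, is a FOS family member of the transcription factor AP-1. FOS proteins bind DNA as dimers with JUN proteins, mostly at the palindromic element TGAGTCA, which reads TGACTCA on the other strand, and many such sites lie in enhancers far from genes. AP-1 acts together with SMAD proteins at genes induced by TGFβ, and it is known for driving genes of invasion and matrix turnover. PBRM1 carries bromodomains, which bind acetylated histones, and belongs to PBAF, one of the SWI/SNF complexes that move nucleosomes with the ATPase BRG1 (encoded by Smarca4).

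Each genotype had 1 library, so the genotypes were not tested against each other. Bracketed ranges are exact Clopper-Pearson 95% intervals that cover counting error only. Fold enrichment is the value the authors deposited for a peak relative to its input, and significance is their −log10 q against that input. Both depend on sequencing depth, which is unknown for these libraries, so they are used here to order peaks within a list. Where KO and control values stand side by side below, they are descriptions and no measure of change at a site. Peaks of the class both had a median of 9.36-fold in the KO list and 6.77-fold in the control list. A longer list can come with more reads as well as with more bound sites, and the part of depth in the results below was not tested.

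Sequence was at hand only for promoter windows, which reach from 250 bases before to 50 after a RefSeq start site (GRCm38.p6, the assembly of mm10). Bound promoters with a summit and no AP-1 element, as at Maff (both) and Dusp1 (control only), are not shown. The stretches below were picked among bound promoters that hold an AP-1 element, with a FOSL2 summit within them or close by. They cover promoters called in KO cells only, in both genotypes and in control cells only. Each is written 5′ to 3′ along the gene's strand and ends before the start site, with AP-1 elements in capitals.
Zeb2, KO only, chr2:45110363-45110449, minus strand: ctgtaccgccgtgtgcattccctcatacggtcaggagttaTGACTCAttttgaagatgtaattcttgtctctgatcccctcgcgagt
Ddit3, KO only, chr10:127290543-127290597, plus strand: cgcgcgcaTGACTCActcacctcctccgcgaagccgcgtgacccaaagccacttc
Mmp10, KO only, chr9:7502239-7502325, plus strand: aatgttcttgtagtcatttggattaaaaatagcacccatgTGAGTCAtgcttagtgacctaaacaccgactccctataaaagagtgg
Wdr37, KO only, chr13:8871737-8871816, minus strand: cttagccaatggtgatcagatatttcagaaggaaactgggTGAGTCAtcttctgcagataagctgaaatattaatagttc
Mmp13, both, chr9:7272439-7272513, plus strand: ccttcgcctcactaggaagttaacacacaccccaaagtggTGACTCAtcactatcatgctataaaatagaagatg
Creb5, both, chr6:53573289-53573373, plus strand: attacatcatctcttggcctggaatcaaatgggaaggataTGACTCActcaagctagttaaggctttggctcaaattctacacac
Sprr1a, both, chr3:92485951-92486037, minus strand: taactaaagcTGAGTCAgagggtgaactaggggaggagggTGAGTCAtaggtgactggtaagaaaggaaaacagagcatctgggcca
2200002D01Rik, control only, chr7:29248472-29248558, minus strand: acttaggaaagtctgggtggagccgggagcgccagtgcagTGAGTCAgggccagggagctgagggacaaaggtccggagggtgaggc

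At Zeb2, which encodes a repressor of epithelial genes, the element lay 129 bp upstream of the start site and 2 bp from the summit of a KO peak with 7.01-fold enrichment. At Ddit3, the gene of the stress factor CHOP, it lay 239 bp upstream and 1 bp from the summit (7.86-fold in KO cells). The metalloprotease gene Mmp10 had it 60 bp upstream and 5 bp from the summit (6.40-fold in KO cells), and Wdr37 had it 37 bp upstream and 7 bp from the summit (10.9-fold in KO cells). None of these 4 promoters had a control peak. The collagenase gene Mmp13 carried the element 32 bp upstream, at the summit itself, with 6.18-fold enrichment in KO cells and 6.77-fold in control cells. At Creb5, a CREB family gene, the values were 9.54-fold in KO cells and 9.89-fold in control cells. At Sprr1a, which encodes a protein of the cornified envelope of squamous cells, they were 26.4-fold in KO cells and 11.6-fold in control cells. At 2200002D01Rik a control peak of 5.21-fold stood 8 bp from the element, and no KO peak was called.

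The AP-1 element was common in all 3 kinds of bound promoter. TGAGTCA or TGACTCA was found in 64.0% (57.0 to 70.6) of the 203 windows with a KO peak and in 77.0% (66.8 to 85.4) of the 87 windows with a control peak. It was found in 5.20% of all 32851 windows and in 4.83% (4.60 to 5.07) of those with no FOSL2 peak. The share was 54.5% (45.2 to 63.6) of 121 windows with a KO peak and no control peak, and 78.0% (67.5 to 86.4) of 82 windows with both. TGACGTCA, the related element of ATF and CREB proteins, stood in 2.96% (1.09 to 6.32) of windows with a KO peak and in 1.79% of all windows. It shares no complete match with the AP-1 element, and both were searched on both strands. The shares above also count windows that a peak reached with its summit outside. Of 122 bound windows of protein-coding genes, 80 held the summit itself. Among these 80, an AP-1 element was found in 33 of 39 KO only windows, 84.6% (69.5 to 94.1), and 36 of 37 shared windows, 97.3% (85.8 to 99.9). It was found in 3 of 4 control only windows. Windows of nearby start sites can hold the same peak, as at Glrx and Upp1, so windows are not all separate sites. The median distance from summit to nearest element was 5.5 bp, and 71 of the 72 windows with an element had it within 50 bp. A match is a description of the letters in the window. The sequence of peaks outside these windows was not analysed here.

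The KO list held 2.14 times as many peaks as the control list (2.06 to 2.23), a log2 ratio of 1.10 (1.04 to 1.16). Joined into 7758 sites, 4314 (55.6%) were called in KO cells only, 3065 (39.5%) in both and 379 (4.89%) in control cells only. Of the KO peaks, 41.6% (40.4 to 42.7) lay in the control list, and of the control peaks 89.0% (87.9 to 90.0) lay in the KO list. With the KO list cut to the 3444 most significant peaks, 67.1% of the peaks of each list were shared.

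Shared peaks marked nearly the same bases in both genotypes. Across 3067 overlapping pairs the summits lay a median of 12 bp apart, 91.8% within 50 bp, and the smallest overlap was 117 bp. Few peaks called in 1 genotype lay directly beside a peak of the other list. The KO only peak closest to a control peak was 266 bp away, 19 of 4314 lay within 500 bp, and the median gap was 126949 bp. Within 12500 bp of a control peak lay 456 KO only peaks (10.6%). The control only peak closest to a KO peak was 242 bp away, 8 lay within 500 bp, and the median gap was 42954 bp. Within 12500 bp of a KO peak lay 94 control only peaks (24.8%). These gaps also depend on the length of the other list. Asking for an overlap of 50% of the shorter peak, or for summits within 250 bp, left the shares within their intervals. Across the pairs, Spearman's rho between KO and control was 0.57 for fold enrichment and 0.66 for −log10 q. These pairs are neighbours within the same 2 libraries, and the correlations are given as a description.

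Peaks found in 1 genotype were the weaker ones of their list. The median fold enrichment in the KO list was 6.45 for KO only peaks, whose middle range was 5.49 to 7.86, and 9.36 for shared peaks, whose middle range was 7.41 to 11.8. In the control list it was 5.24 for control only peaks and 6.77 for shared peaks. The median width was 295 bp for KO only and 372 bp for shared peaks in the KO list, and 268 bp for control only and 304 bp for shared peaks in the control list.

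**Figure D1:**
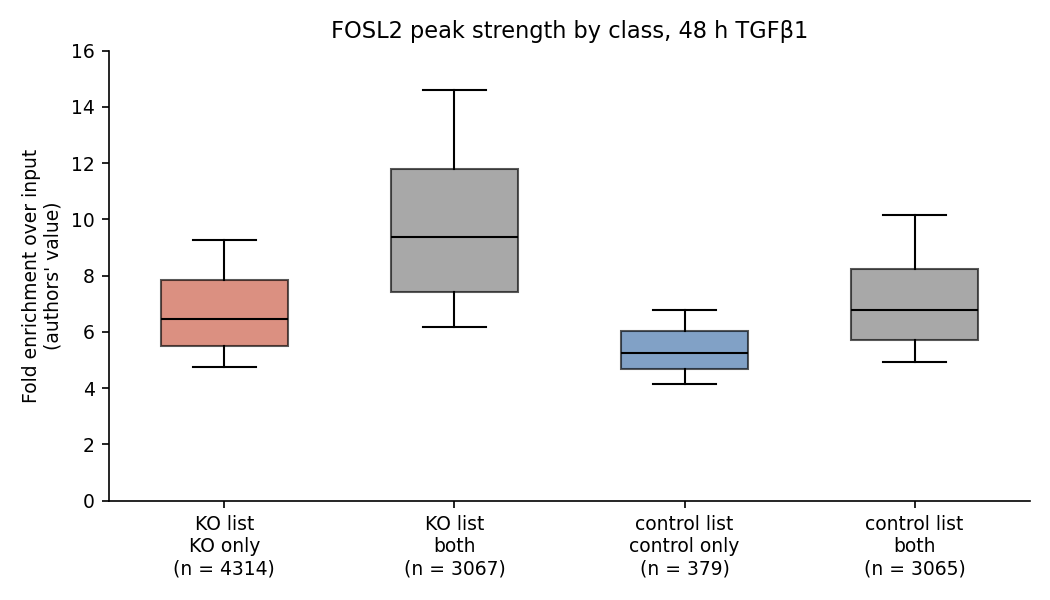
Fold enrichment over input (authors' value, linear axis from 0) of FOSL2 peaks at 48 h TGFβ1, by list and class. Lines are medians, boxes the 25th to 75th and whiskers the 10th to 90th percentile over peaks; the KO only median is 6.45 against 9.36 for shared KO peaks, and the control only median is 5.24 against 6.77 for shared control peaks.

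The share of peaks found in the other genotype fell with significance in each list. In the KO list it was 95.7% (93.9 to 97.0) in the most significant 10% of peaks, 38.5% (35.0 to 42.1) in the fifth of 10 such bins and 9.35% (7.35 to 11.7) in the least significant 10%. In the control list it was 100% in the most significant 10% and 66.0% (60.7 to 71.0) in the least significant 10%. Of the 100 most significant KO peaks, 99 were in the control list, and 64 of these had their control partner among the 100 most significant control peaks. KO only peaks were not confined to the tail, since the strongest of them by fold, near Ywhaz, ranked 94 by significance.

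**Figure D2:**
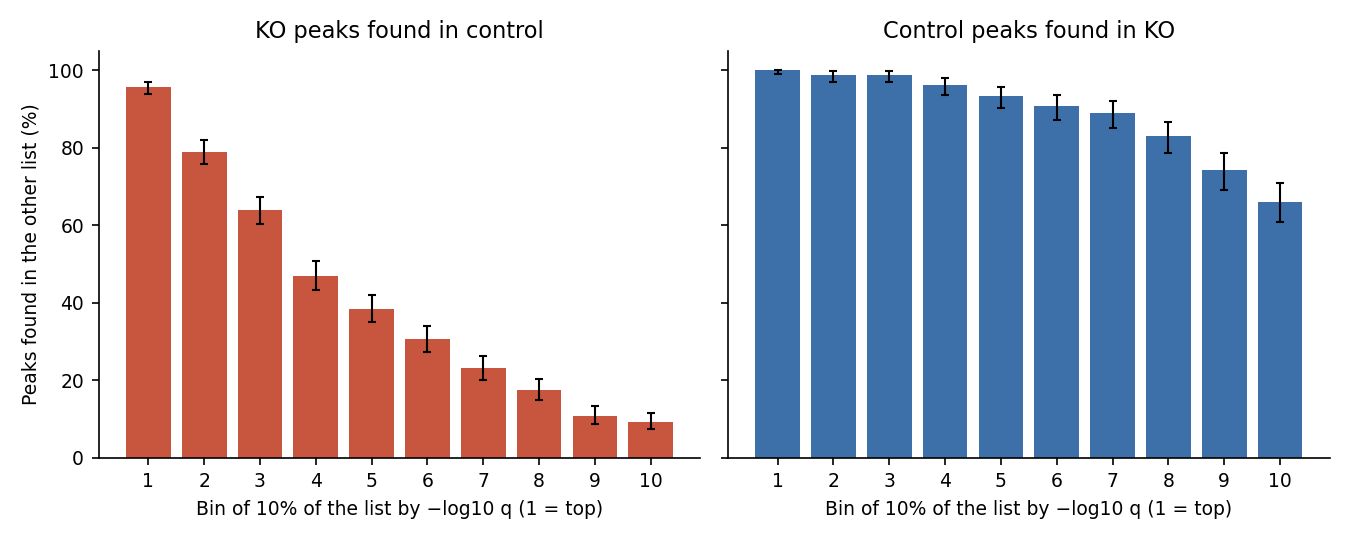
Percent of FOSL2 peaks found in the other genotype's list (1 bp overlap), in 10 bins of equal size by −log10 q. Bars are shares with exact 95% intervals for counting error; KO peaks (left) run between 95.7% and 9.35%, and control peaks (right) between 100% and 66.0%.

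The strongest shared peak lay inside Nell2, the gene of a secreted glycoprotein, with 59.5-fold enrichment in KO cells and 46.8-fold in control cells (chr15:95276388-95277125 in the KO list). Next came Atxn1, the gene of ataxin 1, with 55.6-fold in KO cells and 19.5-fold in control cells (chr13:45623642-45624438). A site 3455 bp from Ankrd12 had 48.8-fold in KO cells and 34.4-fold in control cells. A site 2816 bp from Anxa1, which encodes the phospholipid-binding protein annexin A1, had 33.8-fold in KO cells and 18.9-fold in control cells. These 4 sites held ranks 2 to 5 by significance in both lists. Further shared peaks among the 10 strongest lay 81334 bp from Tet2, the gene of a DNA demethylating dioxygenase, inside Psd3 and Ncald, and 31634 bp from Coq2, an enzyme of coenzyme Q synthesis, and 2 had no gene end within 100 kb.

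Of the KO only peaks, the strongest stood 95815 bp from Ywhaz, a 14-3-3 protein gene (19.03-fold; chr15:36898799-36899315), and 46584 bp from Egr2, an immediate early zinc finger factor (17.3-fold; chr10:67487405-67487885). The next stood near Tex35 (15.4-fold), inside Nckap1l, the gene of the blood cell WAVE complex subunit HEM1 (15.4-fold), and inside Serinc5 (15.2-fold). Itga3, which encodes the laminin-binding integrin α3, had one 16224 bp away (14.9-fold), and Mnt, a MAX-binding antagonist of MYC, had one inside (14.6-fold). Inpp5f, a phosphoinositide phosphatase gene (14.2-fold), and Add1, the gene of the membrane skeleton protein adducin 1 (14.03-fold), completed the named ones. Of the control only peaks, the strongest lay 9942 bp from Ackr3, which encodes an atypical chemokine receptor (9.63-fold; chr1:90225666-90226002) and inside Usp43, a deubiquitinase gene (9.37-fold). Others lay inside Ppp2r2b, a regulatory subunit of phosphatase 2A (8.83-fold), near Ddx59 (8.07-fold), 42381 bp from Zfp36l2, an mRNA decay factor (8.07-fold), and inside Myof, a ferlin of membrane repair (7.84-fold).

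The classes lay in like positions relative to genes, with overlapping intervals. Of KO only peaks, 49.8% (48.3 to 51.3) lay inside a protein-coding gene, of shared KO peaks 48.3% (46.5 to 50.1), and of control only peaks 52.5% (47.3 to 57.6). Outside genes by over 100 kb were 12.8% of KO only, 13.6% of shared KO and 12.7% of control only peaks. Within 1 kb of a start site were 3.13% of KO only, 3.14% of shared KO and 2.95% of control only peaks. Start sites were known for 17492 of 21887 genes and for none on chromosome 18, whose peaks were left out of that count, so these shares are lower bounds. Whether a peak inside a gene was exonic or intronic was not assigned.

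The nearest genes overlapped widely between the lists, which follows in part from the 89.0% of control peaks that were themselves shared. These shares also depend on the length of the lists. The KO list named 4310 distinct nearest protein-coding genes and the control list 2459, and 2321 genes were in both, which is 53.9% of the genes of the KO list and 94.4% of those of the control list. Of the KO only peaks, 42.6% (41.1 to 44.1) had a nearest gene that was also nearest to a control peak, and of the control only peaks 63.6% (58.5 to 68.4) had one that was also nearest to a KO peak.

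Peaks were grouped into clusters where neighbours lay within 12500 bp. In the KO list 21.2% (20.3 to 22.1) of peaks fell into 712 clusters, and in the control list 13.8% (12.7 to 15.0) fell into 227. With the KO list cut to the length of the control list the KO share was 12.49% (11.4 to 13.6), and the order of the genotypes turned round with overlapping intervals. Of the KO clusters, 52.2% mixed shared and KO only peaks, 18.8% held shared peaks alone and 28.9% held KO only peaks alone. Clusters of 3 or more peaks numbered 111 in KO cells and 19 in control cells.

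The largest KO clusters held 5 peaks. They lay inside Plec, the gene of the cytoskeletal linker plectin (2 shared and 3 KO only peaks over 14.2 kb), inside Ahnak, the gene of a giant scaffold protein (3 shared and 2 KO only over 21.2 kb), inside Atxn1 (4 shared and 1 KO only) and 42260 bp from Asb7 (3 shared and 2 KO only). Lmna, the gene of lamin A, had 4 KO peaks and 2 control peaks within 12.7 kb. In control cells the largest clusters held 4 peaks, inside Atxn1 and inside Phldb2, a gene of the cell cortex, and all 8 of these peaks were shared. A control cluster of 3 shared peaks lay 32880 bp from Atf3, where the KO list also held 3. At Dusp1, a phosphatase that ends MAP kinase signalling, a control cluster of 3 peaks stood against 2 KO peaks.

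Counted per gene, a FOSL2 peak lay within the gene or 10 kb to either side at 17.2% of 21887 protein-coding genes in KO cells and at 9.22% in control cells. At 8.64% of genes (1890) there was a KO peak and no control peak, at 0.603% (132) a control peak and no KO peak, and at 8.61% a peak in both. At equal list length the KO share was 9.32%, with 548 genes in KO cells only and 524 in control cells only. The cut to equal length brings these counts close by construction. Long genes are hit more often, with a median span of 45.1 kb for genes with a KO peak, 51.3 kb for genes with a control peak and 17.2 kb for all genes. Most peaks in KO cells fell on Pde4d, a cAMP phosphodiesterase gene spanning 1302 kb, with 12 KO peaks and 6 control peaks. Atxn1 had 10 KO and 7 control peaks, Glis3 had 9 KO and 5 control peaks, and Ahnak, at 87.7 kb, had 8 KO and 4 control peaks. Nfatc2, a calcium-dependent transcription factor gene, had 8 KO and 7 control peaks. Septin9, the gene of a cytoskeletal GTPase, had 7 KO peaks and 1 control peak, and several other genes also had 7 KO peaks.

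The genes of the proteins studied in the series were examined next. Fosl2 itself had 1 peak in each genotype, 613 bp from its start site, with 10.4-fold enrichment in KO cells and 9.63-fold in control cells. Fosb had 1 peak in KO cells (5.05-fold) and none in control cells. Phf10 had 1 in each genotype, 8.90-fold in KO cells and 6.74-fold in control cells. A KO peak of 8.14-fold lay inside Pbrm1, 69600 bp from the start site, and no control peak was called there. Neither list had a peak at Atf3 or Smarca4 or within 10 kb of them.

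Of 11 AP-1 genes (FOS, JUN and BATF families), 5 had a KO peak and 2 a control peak, and at equal list length the KO count was 3. The shares over all genes, for this and each list below, were 17.2% with a KO peak and 9.22% with a control peak. At equal list length the KO share over all genes was 9.32%. Whether a list differs from all genes was not tested. Junb, a JUN partner of FOS proteins, had 9.48-fold in KO cells and 11.4-fold in control cells. Jund had a KO peak of 8.89-fold and no control peak, and Fosl1, the gene of FRA1, had 3 KO peaks (6.39-fold, 5.57-fold and 4.58-fold) within the gene and none in control cells. Of 16 ATF, CREB and C/EBP genes, 9 had a KO peak and 5 a control peak, and at equal list length the KO count was 5. Atf7 had 14.3-fold in KO cells and 10.4-fold in control cells, and Atf6, an endoplasmic reticulum stress sensor, had 5 KO peaks and 3 control peaks. KO peaks without a control peak lay at Ddit3, Atf2 (6.17-fold), Atf4, the main factor of the integrated stress response (6.08-fold), and Atf1 (4.18-fold). All 7 small MAF, BACH and NFE2L genes, whose proteins bind elements that contain the AP-1 core, had a KO peak and 5 had a control peak, and at equal list length the KO count was 6. Bach1, a heme-regulated repressor, had 11.8-fold in KO cells and 5.47-fold in control cells.

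**Figure D3:**
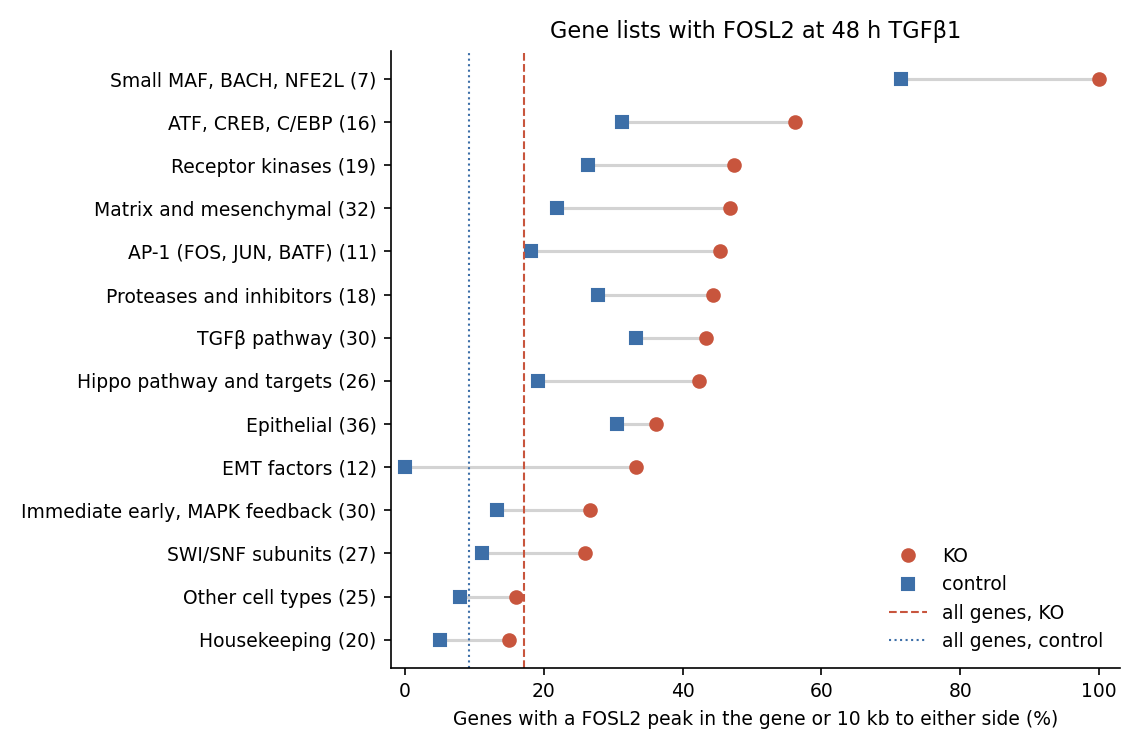
Percent of genes in each of 14 lists (number of genes in parentheses) with a FOSL2 peak within the gene or 10 kb, in KO (circles) and control (squares) at 48 h TGFβ1. Dashed and dotted lines are the shares of all 21887 protein-coding genes, 17.2% in KO and 9.22% in control; the KO point lies right of the control point in all 14 lists for the full KO list, and at equal list length (not drawn) the KO count is higher in 6, equal in 3 and lower in 5.

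Of 12 transcription factor genes of the epithelial to mesenchymal transition, 4 had a KO peak and 0 a control peak, and 8 had neither. Over all genes the shares were 17.2% with a KO peak, 9.22% with a control peak and 8.64% with a KO peak alone. Whether these 12 genes differ from all genes was not tested. Snai1, a repressor of E-cadherin, had a KO peak of 11.5-fold, 14765 bp from its start site (chr2:167552748-167553166, rank 1107 in the KO list). Twist2 had one of 9.38-fold inside the gene (chr1:91816592-91817047, rank 1539). Zeb2 had 2, at the promoter shown above and 5.33-fold inside the gene, and Snai3 had one of 5.77-fold. At equal list length 2 of the 12 remained, Snai1 and Twist2, and the KO share over all genes was 9.32%.

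Of 30 genes of the TGFβ pathway, 13 had a KO peak and 10 a control peak, and at equal list length the KO count was 10. Most were shared, and Ltbp1, which encodes a latent TGFβ binding protein, had 6 KO peaks and 5 control peaks, all 5 shared. The receptor gene Tgfbr3 had 11.2-fold in KO cells and 6.24-fold in control cells. Smad7, the inhibitory SMAD, had 7.30-fold in KO cells and 5.73-fold in control cells. Smad3, a receptor-activated SMAD, had 2 KO peaks (10.4-fold and 8.42-fold) and 2 control peaks (5.47-fold and 5.21-fold), none of which overlapped. KO peaks without a control peak lay near Tgif1, a SMAD corepressor (10.9-fold), 64 bp from the start of Tgfbr2, the type II receptor (5.89-fold), and in Tgif2 (3.46-fold).

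Of 32 matrix and mesenchymal genes, 15 had a KO peak and 7 a control peak, and at equal list length the KO count was 6. Vim, the gene of vimentin, had 1 KO peak of 10.7-fold and 2 control peaks of up to 7.81-fold. Col4a2, a basement membrane collagen, had 15.2-fold in KO cells and 7.75-fold in control cells. The control value was the higher one at Itga5 (7.65-fold in KO cells, 7.75-fold in control cells). It was also higher at S100a4 (5.58-fold in KO cells, up to 7.71-fold in control cells). KO peaks without a control peak lay at Sparc, a matrix glycoprotein (8.70-fold), the smooth muscle calponin gene Cnn1 (8.49-fold), Cd44, the hyaluronan receptor (3 peaks, up to 7.58-fold), and Thbs1, thrombospondin 1 (2 peaks, up to 6.45-fold). Of 18 protease and inhibitor genes, 8 had a KO peak and 5 a control peak, and at equal list length the KO count was 4. Timp3, a metalloprotease inhibitor, had 15.2-fold in KO cells and 5.20-fold in control cells, and Timp2 had up to 7.15-fold in KO cells and 7.69-fold in control cells. Plaur, the urokinase receptor, had a KO peak alone (7.86-fold).

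Of 36 epithelial genes, 13 had a KO peak and 11 a control peak, and at equal list length the KO count was 9. Krt8, a keratin of simple epithelia, had 15.4-fold in KO cells and 13.3-fold in control cells, 1109 bp from its start site. Cdh1, the gene of E-cadherin, had 3 KO peaks (up to 9.54-fold) and 1 control peak (4.94-fold). Jup had the higher value in control cells, with 5.90-fold in KO cells and 7.29-fold in control cells. KO peaks alone lay at the desmosomal cadherin gene Dsc2 (8.14-fold), the tight junction gene Tjp1 (2 peaks, up to 8.06-fold), Krt19 (7.30-fold) and the splicing regulator gene Esrp1 (6.45-fold). Control peaks alone lay at Ovol1, a zinc finger repressor (5.46-fold), and near Spint2, a protease inhibitor (5.21-fold), where the peak is the one at the 2200002D01Rik promoter shown above.

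Of 26 genes of the Hippo pathway and its targets, 11 had a KO peak and 5 a control peak, and at equal list length the KO count was 7. Wwc1, the gene of the pathway component KIBRA, had 2 KO peaks of up to 15.99-fold and 3 control peaks of up to 8.33-fold. Amotl1, which binds YAP, had 4 KO peaks (up to 9.54-fold) and no control peak. The matricellular genes Ccn2 (8.42-fold) and Ccn1 (5.61-fold) also had a KO peak alone. Of 30 immediate early and MAP kinase feedback genes, 8 had a KO peak (6 at equal list length) and 4 a control peak, and KO peaks alone lay at Klf4 (9.54-fold), Klf6 (8.98-fold), Spry1 (5.77-fold) and Ier3 (4.72-fold). Of 19 receptor kinase genes, 9 had a KO peak (3 at equal list length) and 5 a control peak. Of 27 SWI/SNF subunit genes, 7 had a KO peak (4 at equal list length) and 3 a control peak, with Arid1a (10.1-fold) among those in KO cells alone. The 20 housekeeping genes gave 3 with a KO peak (1 at equal list length) and 1 with a control peak. The 25 markers of other cell types gave 4 with a KO peak (0 at equal list length) and 2 with a control peak. The shares of these 2 lists were 15% and 16% with a KO peak, against 17.2% of all genes. With a control peak they were 5% and 8%, against 9.22% of all genes. The median gene span of the 14 lists lay between 5.28 kb, for immediate early genes, and 56.99 kb, for the TGFβ pathway, and the shares were not adjusted for it. At equal list length the KO count was above the control count in 6 lists, the same in 3 and below it in 5.

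The FOSL2 classes were then set beside the other lists of the series. BRG1 was profiled in untreated control cells only. The histone marks were also profiled in control cells only, so neither BRG1 nor the marks were measured in KO cells. The BRG1 list of 29215 peaks overlapped 33.9% (32.5 to 35.3) of KO only peaks, 52.9% (51.1 to 54.7) of shared KO peaks and 34.8% (30.0 to 39.9) of control only peaks. The order between KO only and shared peaks was the same within each range of fold in the KO list. These ranges match strength only roughly, and width was not matched. The top range is open, with shared peaks up to 59.5-fold and KO only peaks up to 19.03-fold. For peaks under 6-fold the overlap was 29.2% (26.99 to 31.4) of KO only and 39.4% (33.6 to 45.4) of shared peaks, and at 10-fold or more it was 46.7% (40.5 to 53.0) of KO only and 59.0% (56.3 to 61.7) of shared peaks. H3K18ac of control cells at 48 h, an acetylation of active chromatin, overlapped 10.2% (9.31 to 11.1) of KO only, 17.6% (16.2 to 18.97) of shared and 8.97% (6.29 to 12.3) of control only peaks. Within each range of KO fold the H3K18ac share was again higher for shared than for KO only peaks, with overlapping intervals. At 10-fold or more it was 16.6% (12.3 to 21.7) of KO only and 21.5% (19.3 to 23.9) of shared peaks. H3K27ac of control cells at 48 h overlapped 3.11% of KO only, 5.12% of shared and 3.43% of control only peaks. Within 1 kb these H3K27ac shares were 13.7% of KO only, 19.4% of shared and 13.5% of control only peaks. Within each range of KO fold the H3K27ac share, at 1 bp of overlap, was also higher for shared than for KO only peaks, with overlapping intervals. At 10-fold or more the shares were 3.47% (1.60 to 6.49) of KO only and 5.19% (4.06 to 6.54) of shared peaks.

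Promoter and enhancer methylation marks were rare at these peaks, with H3K4me3 of control cells at 48 h at 2.04% of KO only, 2.90% of shared and 2.90% of control only peaks, and H3K4me1 at 0.394% of KO only, 0.522% of shared and 0.528% of control only peaks. PHF10 of KO cells at 48 h, the longest list with 158815 peaks, overlapped 16.1% of KO only, 18.6% of shared and 15.6% of control only peaks. ATF3 of KO cells at 48 h (144513 peaks) overlapped 7.28% of KO only, 9.91% of shared and 8.71% of control only peaks. Counted within 1 kb, the shares of KO only peaks were 5.03% for H3K4me3, 1.95% for H3K4me1, 32.4% for KO PHF10 and 23.6% for KO ATF3. Those of shared peaks were 5.54%, 2.18%, 34.2% and 26.1% in the same order of lists, and those of control only peaks 6.86%, 2.11%, 34.6% and 23.5%. The short FOSB lists lay mostly inside FOSL2 peaks. Of 31 FOSB peaks of KO cells at 48 h, 27 lay in the KO FOSL2 list and 25 in the control FOSL2 list, and of 188 FOSB peaks of control cells, 151 lay in the KO FOSL2 list and 138 in the control FOSL2 list.

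**Figure D4:**
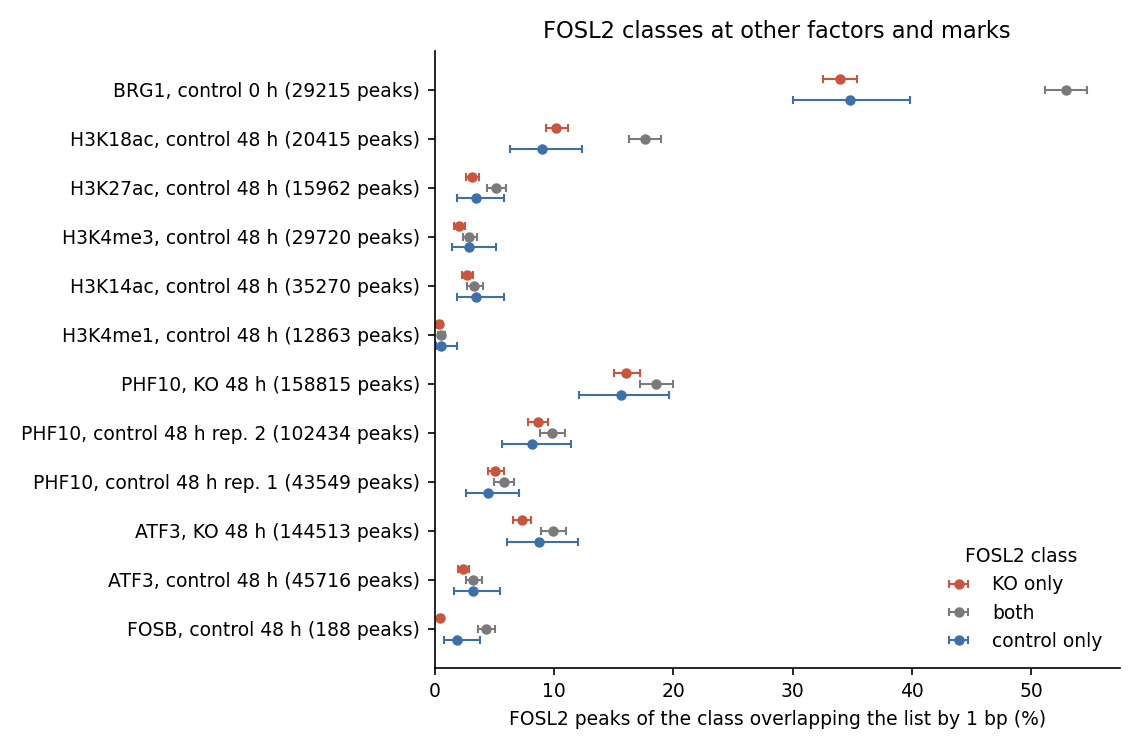
Percent of FOSL2 peaks of each class (KO only, both by KO peak, control only) that overlap by 1 bp the peaks of 12 other lists, with exact 95% intervals for counting error and the length of each list. The shared class lies right of KO only and control only for BRG1 (52.9% against 33.9% and 34.8%) and H3K18ac. Taken by control peak (not drawn), the shared class has 52.5% for BRG1 and 13.2% for H3K18ac. The latter has an interval that overlaps that of control only. By KO peak the shared class also lies right of KO only, with intervals apart, for H3K27ac, KO ATF3 and control FOSB. Within each range of KO fold the H3K27ac and H3K18ac shares are higher for the shared class, and the intervals of these 2 classes overlap.

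The KO to control ratio of peak numbers was not even along the genome. It was between 1.66 (chromosome 19) and 2.29 (chromosome 8) on 14 chromosomes, and between 2.83 and 3.81 on chromosomes 9, 4, 12, 18, X and 14. Pooled after their ratios were seen, these 6 held 1171 KO and 379 control peaks (ratio 3.09, 2.75 to 3.48), and the other 14 held 6210 KO and 3065 control peaks (ratio 2.03, 1.94 to 2.12). On the same 6 chromosomes other lists had low pileups, the reads stacked at a peak. The median pileup of BRG1 peaks was 11 to 12.9 on the 6 and 13.5 to 20.4 on the 14, and that of KO ATF3 peaks at 48 h was 13 to 16 on the 6 and 17 to 27 on the 14. Over 20 chromosomes Spearman's rho between the ratio and the median pileup was -0.80 for BRG1, -0.85 for KO ATF3 and -0.88 for KO PHF10 at 0 h. It was 0.48 for H3K27ac and 0.18 for H3K18ac at 48 h. These are descriptions over chromosomes that share their libraries, and the part of chromosome-wide signal in the ratio was not tested.

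**Figure D5:**
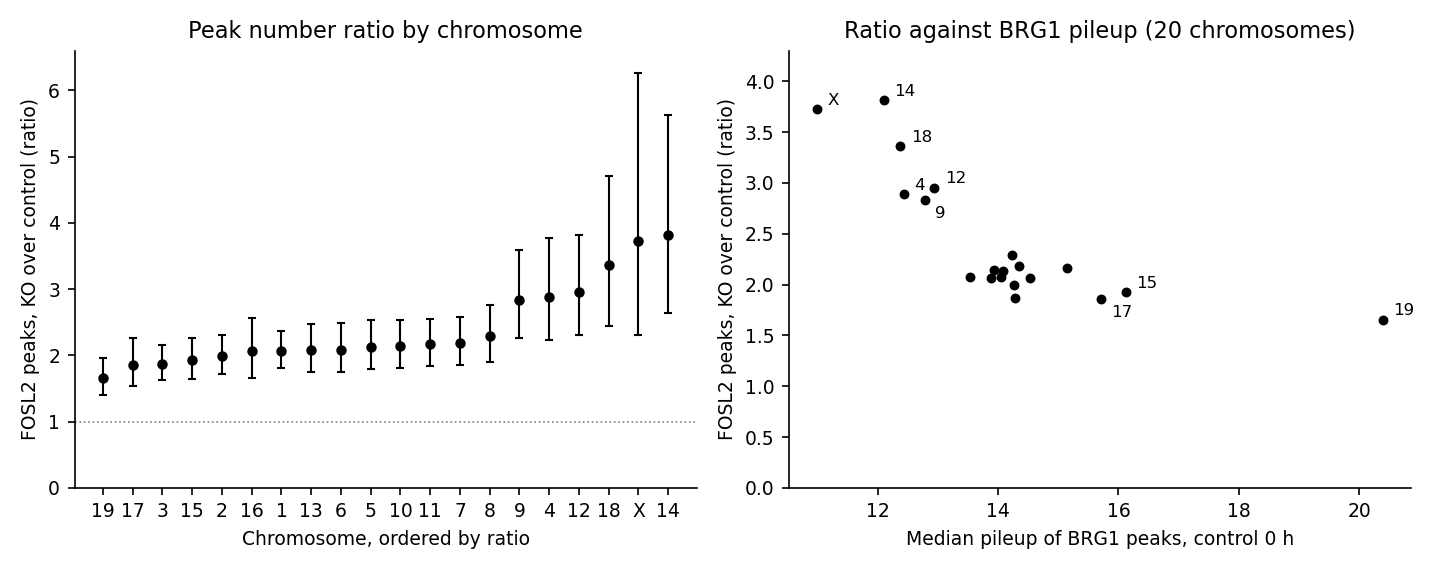
Ratio of FOSL2 peak number, KO over control, by chromosome with 95% intervals for counting error (left; dotted line at 1), and against the median pileup of BRG1 peaks in untreated control cells (right; 1 point per chromosome, labels for 9). Chromosomes 9, 4, 12, 18, X and 14 stand at 2.83 to 3.81 and have BRG1 medians of 11 to 12.9.

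Before TGFβ1 the FOSL2 lists were almost empty, and all 5 KO peaks and 5 of the 7 control peaks lay at sites with a pileup of 154 or more, against a median of 28 in KO cells and 27 in control cells at 48 h. A site on chromosome 2 (chr2:98666700-98667187 in the KO list) had a pileup of 21294 in KO cells and 20799 in control cells at 0 h, with enrichment of 1.52-fold in KO cells and 2.01-fold in control cells. It was called again at 48 h with 2.16-fold in KO cells and 1.84-fold in control cells, and it held the highest significance in each list. Of the other 0 h peaks in control cells, 2 lay at strong 48 h sites. The Atxn1 site had 7.01-fold in control cells at 0 h and 19.5-fold at 48 h, and the site near Ankrd12 had 3.81-fold at 0 h and 34.4-fold at 48 h. Neither was called in KO cells at 0 h.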

How the data were processed

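Peak lists of FOSL2 ChIP-seq in NMuMG cells were analysed as deposited, with 1 library per genotype at 48 h and each list naming 1 ChIP library and 1 input. Per the submitters' processing notes, the tools were MACS3 3.0.0a7, Partek 11.0.24.0325, Bowtie2 2.3.3, fastp 0.19.5 and deepTools 3.5.1, on mm10, with no settings. The authors deposited a pileup signal (reads stacked at the peak), −log10 p-values and −log10 q-values, and a fold ratio over input per peak. Read totals were not used here, so depth is unknown.

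Peaks were shared at 1 bp of overlap, clustered within 12500 bp, and assigned to a gene when inside it or up to 10 kb away (RefSeq GRCm38.p6, 21887 protein-coding genes on chromosomes 1 to 19, X and Y). All peaks lay on these chromosomes. Positions are the lists' start plus 1 to end and may be off by 1 base, since the origin is not given in the sources used here. Counts were computed in Python 3.11.15 (pandas 2.3.3, scipy 1.17.1) and tested on simulated lists.

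The classes and 14 gene lists (306 symbols, all found) were chosen with earlier results of these data known, so their counts support no direction. Genes were named by a rule: list members with a peak in 1 genotype only (up to 30), AP-1, ATF and transition factor genes with a peak in both, the 10 strongest peaks of each class, the 5 largest clusters, the 10 genes with most KO peaks and the 6 genes of the proteins studied. Shared members of other lists, members ranked below 30, the bound promoters outside the lists, and Septin9, Lmna and Dusp1 were named after their values were seen. Alternatives were stricter filters, equal list length, other overlap, cluster and gene distances and, added after the data were seen, 6 chromosomes left out.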

Additional observations from a re-analysis of the deposited data

How the results depend on the processing

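No paired analysis was possible because each genotype had 1 FOSL2 library at 48 h. Over 13 results, 63 alternatives were compared: 33 stayed within the interval of the reported value (within 1.5 times for counts of genes), and 30 moved. Some of the 33 could not move. These were the alternatives with all sequences and the share of control peaks in clusters at equal length, since the control list was not cut. Only the log2 ratio of peak number could change sign, since the other results are shares or counts, and it did not. At equal list length the order of KO and control turned round for the share in clusters. The order of KO only and control only peaks turned round there for BRG1 overlap, both with overlapping intervals. The log2 ratio of peak number was 1.18 at 5-fold or more, 1.02 without chromosomes 4, 9, 12, 14, 18 and X, and 0 by construction at equal list length. Of the KO peaks, 39.8% lay in the control list at 5-fold or more, 44.3% without the 6 chromosomes and 67.1% at equal length. Of the control peaks, 90.2% lay in the KO list at 5-fold or more and 67.1% at equal length. The share in clusters at 5 kb was 10.8% in KO and 7.06% in control, at 25 kb 33.7% and 21.2%, and at 5-fold or more 19.2% and 11.3%, and at equal length it was 12.49% in KO and 13.8% in control. Genes with a peak in 1 genotype numbered 3541 in KO and 259 in control within 50 kb, and 548 and 524 at equal length. BRG1 overlap of KO only, shared and control only peaks was 43.2%, 55.9% and 40.3% at equal length and 39.0%, 57.0% and 40.9% within 1 kb. H3K18ac overlap was 14.8% of KO only, 19.5% of shared and 9.97% of control only peaks at equal length, where the intervals of KO only and control only peaks lay apart, and 31.5%, 43.8% and 30.1% of the 3 classes within 1 kb. The alternative with all sequences gave the reported values, since every peak lay on an assembled chromosome. Depth is unknown, its part was not tested, and 1 library per genotype leaves the spread between libraries unmeasured.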
